A study of Homo sapiens with 4 samples.

Results

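Transcription of 10 core circadian clock genes was followed in HCT116, a line from a human colorectal carcinoma, with and without type II topoisomerases. The genes are CLOCK, NPAS2, PER1, PER2, PER3, CRY1, CRY2, NR1D1, NR1D2 and DBP, taken by name from the 60656 gene IDs counted. All 10 were found and all 10 passed the filter on low counts, among 19103 genes that did.

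The assay was TTchem-seq, in which RNA made during a short pulse of 4-thiouridine is fragmented, purified and sequenced. The DKO group (2 libraries) is labelled as lacking both TOP2A and TOP2B. Its cells carry both TOP2A alleles fused to mAID, an auxin-inducible degron that marks the protein for destruction, together with a CRISPR/Cas9 deletion of TOP2B, and they received 500 µM auxin for 8 h. The WT group (2 libraries) is labelled wildtype. The only other HCT116 line the treatment protocol names is TOP2A mAID, with TOP2B intact, and that text gives auxin to the DKO line alone. Palbociclib, which blocks CDK4 and CDK6, was given to all cells at 2 µM for 28 h to arrest them in G1, and the 4-thiouridine pulse was 1 mM over 30 min. The labels do not say how many clones were used. Loss of the enzymes, auxin itself and a difference between lines therefore cannot be told apart.

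The mammalian clock is a loop of transcription and repression. CLOCK, or its relative NPAS2, pairs with BMAL1 and switches on genes that carry an E-box, among them the PER and CRY genes, whose proteins return to the nucleus and block the pair. In a second loop the nuclear receptors REV-ERB alpha and beta, encoded by NR1D1 and NR1D2, repress BMAL1, and DBP, itself driven through E-boxes, activates genes that carry a D-box. Clock transcripts rise and fall through the day, and each group here was sampled at 1 time, so a difference in clock phase and a difference in level cannot be told apart. In bulk libraries, neither can a change in the share of cells transcribing a gene and a change within each cell.

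Counted reads totalled 53000795 and 53777749 in DKO and 51718468 and 51142867 in WT. CPM are counts scaled to a common library total. On the log2 CPM scale, replicates correlated at r = 0.997 in DKO and in WT, yet each pair differed beyond sampling noise (chi-square per degree of freedom 4.97 in DKO and 4.27 in WT). The labels do not say that replicates were separate cultures, so p-values measure only the spread between these libraries, which may be technical. The fit shares this spread over genes, so standard errors hardly follow the replicates of a single gene. NPAS2 and NR1D2 both had a standard error of 0.047, while their DKO replicates differed by 0.083 and 0.014 on the log2 scale. TOP2B, the deleted gene, averaged 149 ± 1.8 CPM over the DKO libraries and 142 ± 2 CPM over the WT libraries (SD, n = 2 in each), so its total count does not show the edit. Of 13 intestinal epithelial markers 9 were tested. EPCAM, KRT8, KRT18, KRT19, CDH1 and CDX2 were all above 10 CPM in every library. ELF3, CLDN7 and LGALS4 were lower, averaging 1.79, 1.54 and 0.235 CPM in DKO and 2.78, 2.09 and 0.243 CPM in WT. KRT20, CDX1, VIL1 and TFF3 were at or near 0. The summed level of the tested epithelial markers was 446 and 432 CPM in DKO and 506 and 472 CPM in WT, and 5 of the 9 fell. Summed neuronal markers (6 of 6 tested) were at 15.2 and 15.6 CPM in DKO and 7.85 and 8.77 CPM in WT. Of these 6, SNAP25 (4.06 and 4.93 CPM in DKO, 0.579 and 0.568 CPM in WT) and NCAM1 (3.19 and 2.91 CPM in DKO, 0.154 and 0.0783 CPM in WT) rose, and 4 did not pass. Tested mesenchymal, immune and endothelial markers together stayed below 8 CPM in each library. Of these, ACTA2 and HLA-DRA rose, CSF1R fell and the rest did not pass. The part of these differences in the clock genes was not tested.

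Of the 10 clock genes, 4 rose in DKO at an adjusted p under 0.05 and 0 fell. All 4 encode repressors, namely NR1D1, CRY1, PER1 and NR1D2. Across all 19103 tested genes 40.1% were called, 19% higher and 21.1% lower, so in this fit the share of clock genes called was near that of all genes, with the clock calls all on the higher side. How many genes each other setting tested is not given here, so shares were compared in this fit alone. By DESeq2, 4 clock genes were higher while 2347 of all genes were higher and 2469 lower, against 3632 and 4025 in this fit. Adjusted p-values are Benjamini-Hochberg values over all tested genes from the quasi-likelihood test of edgeR, and errors on log2 fold changes are standard errors from the same test (n = 2 per group). The fitted log2 fold change was above 0 for 10 of 10 clock genes and for 49.0% of all tested genes. With all 10 above 0, none could be called lower at any p-value. DESeq2 and limma voom, run on the same counts, also gave 0 lower. The median was 0.13 for the clock genes and -0.01 over all tested genes. DKO and WT libraries did not overlap for 7 of the 10 clock genes, against 67.9% of all tested genes.

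**Figure D1:**
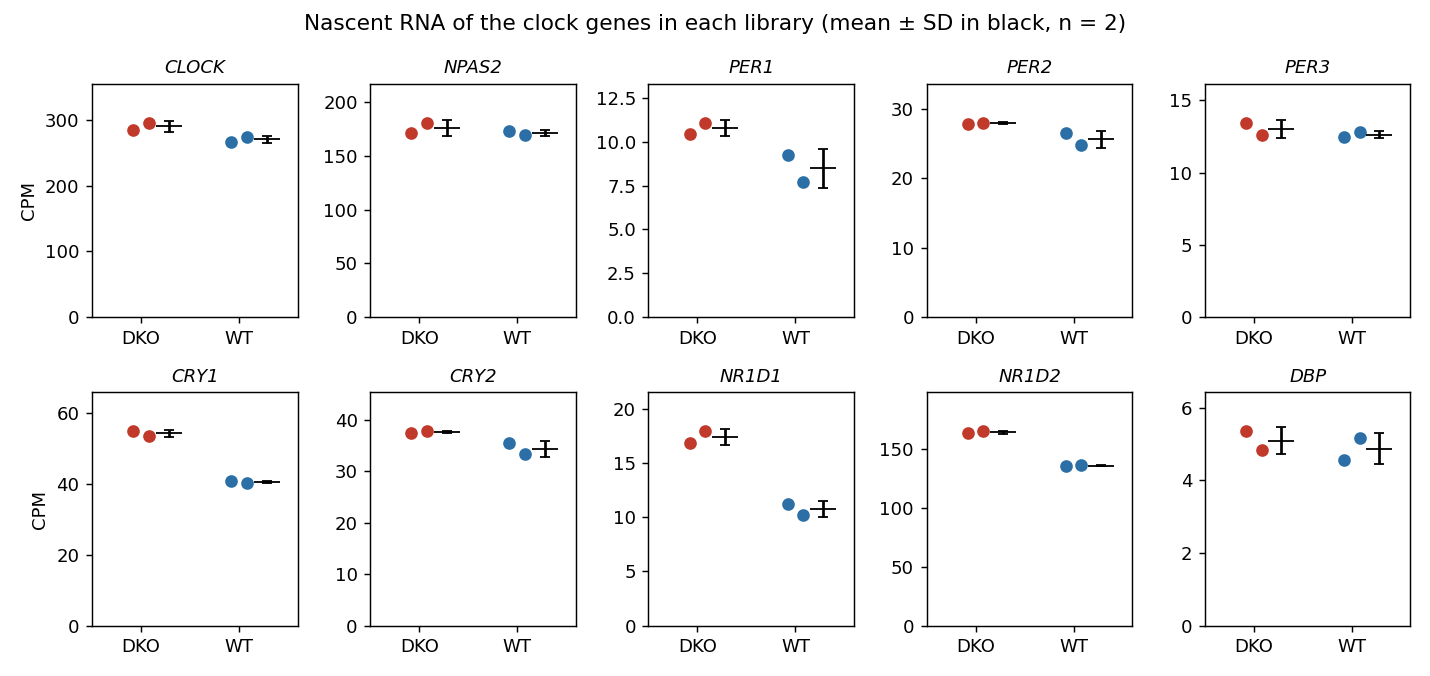
Each panel shows 1 clock gene, with CPM in each of the 2 DKO and 2 WT libraries as points and the mean ± SD (n = 2) in black, on an axis that starts at 0. CRY1, NR1D1 and NR1D2 have all DKO points well above the WT points, while NPAS2, PER3 and DBP overlap.

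Neither activator passed the test. CLOCK, a transcription factor of the basic helix-loop-helix PAS family (chr4:55427903-55546909), had 285 and 296 CPM in DKO, against 267 and 275 CPM in WT. Its DKO libraries lay above its WT libraries by a small margin, a log2 fold change of 0.10 ± 0.05 that missed the threshold (adjusted p = 0.0834). NPAS2, which can stand in for CLOCK (chr2:100818723-100996829), had 171 and 181 CPM in DKO, against 174 and 169 CPM in WT. These libraries overlapped, and the log2 fold change was 0.04 ± 0.05 (adjusted p = 0.545). The ratio of NPAS2 to CLOCK counts was 0.602 and 0.612 in DKO and 0.65 and 0.617 in WT. CLOCK passed the threshold in 5 of 13 alternative settings, with adjusted p-values from 0.025 to 0.401 over the 13. With a library left out it passed without DKO replicate 1 (0.13, adjusted p = 0.0361) but not without DKO replicate 2 (adjusted p = 0.315), WT replicate 1 (0.401) or WT replicate 2 (0.222).

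The PER genes have products that bind CRY and carry the negative signal of the loop. Of the 3, PER1 passed the test, and differences among them were not tested. PER1 (chr17:8140472-8152404), which also answers quickly to outside signals, had 10.5 and 11.1 CPM in DKO, against 9.28 and 7.71 CPM in WT. The groups did not overlap, but the WT libraries were further apart than the DKO libraries. PER1 rose by a log2 of 0.34 ± 0.09 (adjusted p = 0.000893), or 1.27-fold. The size of this rise varied with the WT library kept, at 0.48 when replicate 1 was dropped and 0.22 when replicate 2 was dropped. The call was lost in each of these fits. They also called fewer of all genes, so the loss there is not particular to PER1. With all libraries kept but no filter on low counts, PER1 missed the threshold as well (0.34, adjusted p = 0.143). PER2 (chr2:238244044-238300065), whose protein stability helps set the length of the daily period, had 27.8 and 28.0 CPM in DKO, against 26.5 and 24.7 CPM in WT. Both DKO libraries were above both WT libraries, yet the log2 fold change of 0.13 ± 0.06 did not pass (adjusted p = 0.11). PER3, the PER gene least needed for rhythm in mouse (chr1:7784291-7845177), had 13.5 and 12.6 CPM in DKO, against 12.5 and 12.8 CPM in WT. Its libraries overlapped (0.05 ± 0.08, adjusted p = 0.697).

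Promoter sequences of PER1 and PER3 are shown because the first rose and the second did not pass, and each carries a D-box. Sequences are from RefSeq (GRCh38.p14, the same hg38 build as the counts), run 5′ to 3′ from 250 bases before to 50 bases after the annotated start, and have matches to the E-box CACGTG or the D-box TTATGNAA, on either strand, in capitals.
PER1 promoter, chr17:8152355-8152654, - strand: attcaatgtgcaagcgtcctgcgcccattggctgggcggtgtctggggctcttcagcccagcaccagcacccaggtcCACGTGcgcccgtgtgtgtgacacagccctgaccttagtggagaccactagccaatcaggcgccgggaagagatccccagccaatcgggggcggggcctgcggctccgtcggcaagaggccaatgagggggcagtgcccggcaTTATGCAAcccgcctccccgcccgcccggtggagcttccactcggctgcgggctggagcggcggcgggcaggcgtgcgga
PER3 promoter, chr1:7784041-7784340, + strand: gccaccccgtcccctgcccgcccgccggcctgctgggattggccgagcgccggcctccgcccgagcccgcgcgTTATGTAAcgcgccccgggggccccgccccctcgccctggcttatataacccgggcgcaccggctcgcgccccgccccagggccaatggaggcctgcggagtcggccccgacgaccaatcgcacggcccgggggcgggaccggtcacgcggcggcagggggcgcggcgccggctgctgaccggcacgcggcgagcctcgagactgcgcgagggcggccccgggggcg
PER1 holds an E-box that begins 173 bases before the start and a D-box that begins 30 bases before it. PER3 holds a D-box that begins 177 bases before its first annotated start, and no E-box of these letters in that window.

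The CRY genes encode the direct repressors of the CLOCK and BMAL1 pair. CRY1 (chr12:106991364-107093549), the stronger repressor in mouse cells, had 54.8 and 53.6 CPM in DKO, against 40.7 and 40.3 CPM in WT. The gap between groups was more than 10 times either replicate gap. CRY1 rose by 0.42 ± 0.05 on the log2 scale (adjusted p = 8.56e-12), or 1.34-fold, and stayed between 0.40 and 0.44 with each library left out. CRY2 (chr11:45847118-45883244), its paralog, had 37.5 and 37.7 CPM in DKO, against 35.4 and 33.3 CPM in WT. The groups did not overlap, but the log2 fold change of 0.13 ± 0.06 missed the threshold (adjusted p = 0.0613). The ratio of CRY1 to CRY2 counts was 1.46 and 1.42 in DKO and 1.15 and 1.21 in WT, again without overlap.

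Both REV-ERB genes rose. NR1D1 (chr17:40092793-40100589), a haem-binding repressor, had 16.8 and 17.9 CPM in DKO, against 11.2 and 10.2 CPM in WT. Its log2 fold change of 0.70 ± 0.08 (adjusted p = 2.78e-14), or 1.62-fold, was the largest of the 10 genes and exceeded in size that of 89.9% of all tested genes. It lay between 0.63 and 0.77 with each library left out. NR1D2 (chr3:23945286-23980617), the related repressor, had 163 and 165 CPM in DKO, against 135 and 136 CPM in WT. Replicates were nearly equal in both groups, and the gene rose by a log2 of 0.27 ± 0.05 (adjusted p = 1.97e-07), or 1.21-fold. The ratio of NR1D1 to NR1D2 counts was 0.103 and 0.109 in DKO and 0.0831 and 0.0751 in WT.

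Promoters of the REV-ERB genes are shown because both genes rose while their windows differ in motif content. For NR1D2 the second of 2 annotated starts is printed, since the first has no match.
NR1D1 promoter, chr17:40100540-40100839, - strand: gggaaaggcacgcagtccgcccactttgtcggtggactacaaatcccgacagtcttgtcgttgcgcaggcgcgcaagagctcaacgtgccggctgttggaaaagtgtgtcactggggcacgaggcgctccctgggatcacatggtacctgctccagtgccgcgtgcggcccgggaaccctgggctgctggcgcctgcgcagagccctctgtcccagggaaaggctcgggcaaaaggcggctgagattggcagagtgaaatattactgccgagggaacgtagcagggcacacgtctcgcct
NR1D2 promoter, chr3:23945871-23946170, + strand: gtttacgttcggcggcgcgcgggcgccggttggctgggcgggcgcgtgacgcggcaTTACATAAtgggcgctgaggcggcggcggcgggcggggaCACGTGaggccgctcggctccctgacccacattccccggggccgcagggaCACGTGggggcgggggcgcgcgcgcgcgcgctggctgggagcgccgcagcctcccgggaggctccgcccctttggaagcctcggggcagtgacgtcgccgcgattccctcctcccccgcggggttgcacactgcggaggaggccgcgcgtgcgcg
NR1D2 holds E-boxes that begin 155 and 105 bases before that start and a D-box, read on the opposite strand, that begins 194 bases before it. NR1D1 has no match to these letters in its window. Among the 10 genes, which have 14 windows in all, an E-box was found in 2 windows and a D-box in 3, against 7.26% and 3.3% of 35116 windows of 300 bases over all RefSeq genes. The cAMP response element TGACGTCA, which is its own reverse complement like the E-box, was in 0 of the 14 and in 1.85% of all. Of the 4 genes that rose, PER1 and NR1D2 hold an E-box and a D-box in these windows, and NR1D1 and CRY1 hold neither there. Sequence outside the windows and variants of these motifs were not searched. These matches describe letters, not bound sites.

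**Figure D2:**
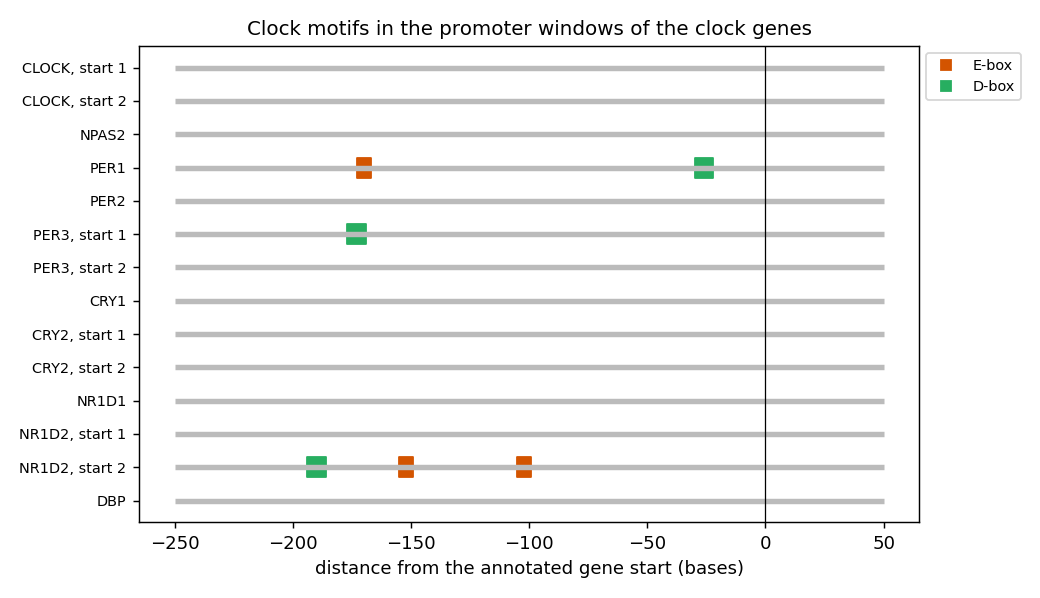
Grey bars are the 14 promoter windows of the 10 clock genes, from 250 bases before to 50 bases after each annotated start (distance in bases), with E-boxes in orange and D-boxes in green. Matches are found in PER1, PER3 and the second NR1D2 window, and the 11 other windows have none.

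DBP, a proline and acidic amino acid-rich leucine zipper activator (chr19:48630030-48637379), is a strongly rhythmic clock output. It had 5.35 and 4.84 CPM in DKO, against 4.57 and 5.17 CPM in WT. The libraries overlapped, and the log2 fold change was 0.07 ± 0.11 (adjusted p = 0.682). With 258 to 285 reads in DKO and 237 to 264 in WT, DBP had the fewest reads of the 10 genes and the widest error.

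Levels of different genes were compared per kb of genomic span, in CPM per kb. The sources used here do not say if introns were counted. If only exons were, the order below would depend in part on intron length. NR1D2 was highest, at 4.64 ± 0.032 in DKO and 3.84 ± 0.011 in WT. CLOCK followed at 2.44 ± 0.07 in DKO and 2.28 ± 0.044 in WT. NR1D1 came next with 2.23 ± 0.096 in DKO and 1.38 ± 0.095 in WT. CRY2 (1.04 ± 0.0054 in DKO and 0.95 ± 0.042 in WT) and NPAS2 (0.989 ± 0.04 in DKO and 0.963 ± 0.017 in WT) were close in both groups, and in WT they differed by less than their spread. PER1 (0.904 ± 0.039 in DKO and 0.712 ± 0.093 in WT) and DBP (0.693 ± 0.05 in DKO and 0.662 ± 0.058 in WT) differed in WT by less than their spread. CRY1 had 0.53 ± 0.0087 in DKO and 0.396 ± 0.0025 in WT, and PER2 0.498 ± 0.0023 in DKO and 0.457 ± 0.022 in WT, so this pair changed places between groups. PER3 was lowest, at 0.214 ± 0.01 in DKO and 0.207 ± 0.0038 in WT (SD, n = 2 throughout). Genomic spans of the 4 genes that rose ran from 7.8 to 102 kb and those of the other 6 from 7.35 to 178 kb.

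Activators were set against repressors as the medians of their log2 fold changes, a description with no test. The median was 0.07 for CLOCK and NPAS2 and 0.27 for the 7 PER, CRY and NR1D genes, a difference of -0.20. By library, activators minus repressors stood at -0.23 and -0.18 in DKO and at -0.05 and 0.05 in WT, on the log2 scale relative to the WT mean. This difference rested on which genes stood for each side. BMAL1, the partner of CLOCK and NPAS2 and the gene that REV-ERBs repress, and its paralog BMAL2 are not among the 10 genes. BMAL1 had 69.5 and 76.3 CPM in DKO, against 56.3 and 55.1 CPM in WT, and rose by 0.39 ± 0.05 on the log2 scale (adjusted p = 1.84e-11). BMAL2 had 70.9 and 73.0 CPM in DKO, against 51.4 and 51.8 CPM in WT, and rose by 0.48 ± 0.05 (adjusted p = 4.58e-16). Neither gene's groups overlapped. With both added, a choice made after their values were seen, the activator median was 0.24 and the difference -0.03. With repressors restricted to the 5 PER and CRY genes, whose median was 0.13, it was -0.06. BMAL1 and both of its REV-ERB repressors were higher in DKO.

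**Figure D3:**
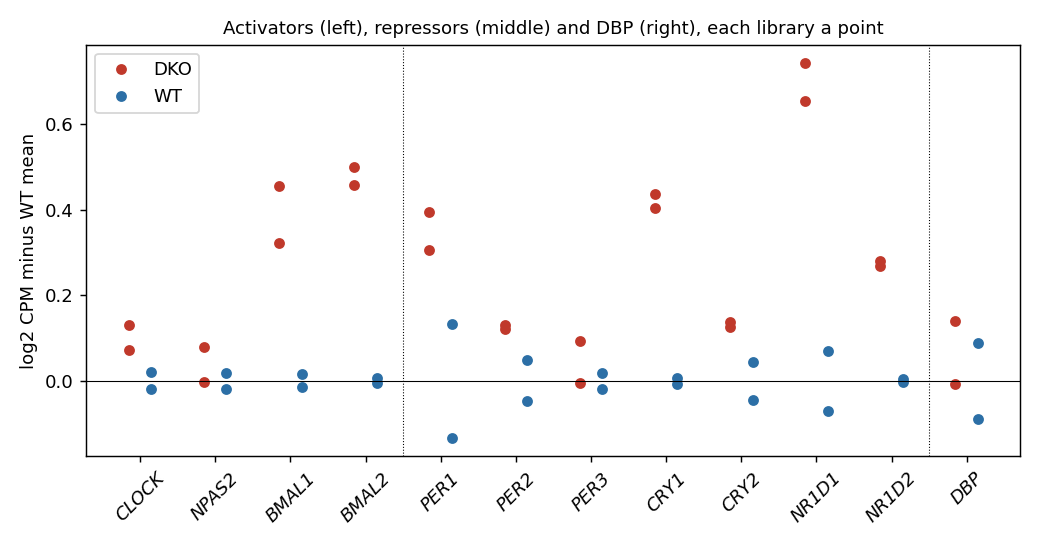
Points are libraries (DKO left of WT for each gene), as log2 CPM minus the mean of the WT libraries, for activators, repressors and DBP in turn. BMAL1 and BMAL2 stand about as far above WT as CRY1, whereas CLOCK and NPAS2 stay near 0.

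The wider clock list held 22 genes, of which 20 were tested. RORB (2 to 3 reads in DKO and 3 to 5 in WT) and CIART (0 to 2 in DKO and 1 to 2 in WT) were too low. Of the 20, 6 rose and 4 fell, with a median log2 fold change of -0.03, against 19% higher and 21.1% lower over all tested genes. In the group of BMAL and ROR activators 2 of 3 tested genes rose, BMAL1 and BMAL2. RORA, which activates BMAL1, had 15 reads in each DKO library and 18 and 13 in WT, and did not pass (-0.10 ± 0.38, adjusted p = 0.866). Among the other D-box factors, NFIL3, a repressor that competes with DBP, rose by 0.29 ± 0.06 (adjusted p = 3.52e-05). Its call was lost in 1 of 13 alternative settings, the fit without WT replicate 1, where the log2 fold change was 0.27. TEF (-0.06, adjusted p = 0.598) and HLF (-0.08, adjusted p = 0.42), which are relatives of DBP, did not pass.

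The DEC genes, which encode further repressors at E-boxes, moved in opposite directions. BHLHE41 (DEC2) had 1.78 and 1.65 CPM in DKO, against 0.521 and 0.587 CPM in WT. It rose by 1.63 ± 0.22 on the log2 scale (adjusted p = 6.42e-11), or 3.09-fold, from the low level of 27 and 30 reads in WT. BHLHE40 (DEC1) had 12.0 and 13.2 CPM in DKO, against 20.7 and 19.7 CPM in WT. Its fall was by a log2 of -0.68 ± 0.08 (adjusted p = 5.28e-15), and no library of either gene crossed into the other group's range. TIMELESS, better known in human cells for its role at replication forks, gave -0.02 (adjusted p = 0.832).

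Of 7 kinases and ubiquitin ligase subunits that set the stability or activity of clock proteins, 1 rose and 2 fell. CSNK2A1, which encodes a catalytic subunit of casein kinase 2, had 357 and 353 CPM in DKO, against 500 and 521 CPM in WT. It fell, with a log2 fold change of -0.52 ± 0.05 (adjusted p = 2.93e-19). It lies on chromosome 20, where 358 tested protein-coding genes had a median log2 fold change of -0.62 and 308 fell, and the part of this shift in the kinase was not tested. None of the 10 clock genes lies there. On their own chromosomes, medians over protein-coding genes ran from -0.13 (chromosome 19, with DBP) to 0.08 (chromosome 4, with CLOCK), and chromosome 17, with PER1 and NR1D1, had -0.08. CSNK1E, a kinase of PER proteins, fell by 0.33 (SE 0.11, adjusted p = 0.0113). It lost its call in 5 of 13 alternative settings, among them DESeq2 (adjusted p = 0.138) and no filter on low counts (adjusted p = 0.0903). The rest left out DKO replicate 2 (log2 fold change -0.25), WT replicate 1 (-0.36) or WT replicate 2 (-0.30). BTRC (0.14 ± 0.05, adjusted p = 0.00972), which targets PER for destruction, rose by 1.10-fold. BTRC lost its call in 4 of 13 alternative settings, among them no filter on low counts (0.14, adjusted p = 0.164). The rest left out DKO replicate 2 (log2 fold change 0.10), WT replicate 1 (0.11) or WT replicate 2 (0.17). CSNK1D, CSNK1A1, GSK3B and FBXW11 did not pass, with values from -0.04 to 0.07. NFIL3, CSNK1E and BTRC were named after their values were seen.

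Among 4 clock output genes, NAMPT, which encodes the rate-limiting enzyme of NAD salvage, had 142 and 141 CPM in DKO, against 106 and 107 CPM in WT. It rose by 0.41 ± 0.05 (adjusted p = 2.48e-14), or 1.33-fold. USP2, a ubiquitin protease, had 5.03 and 4.56 CPM in DKO, against 6.25 and 5.99 CPM in WT. It fell by 0.35 (SE 0.11, adjusted p = 0.00548). Its call was lost in 5 of 13 alternative settings, among them DESeq2 (adjusted p = 0.0962) and no filter on low counts (adjusted p = 0.072). The rest left out DKO replicate 2 (log2 fold change -0.28), WT replicate 1 (-0.32) or WT replicate 2 (-0.38). WEE1, a kinase that restrains entry into mitosis (-0.05, adjusted p = 0.511), and NOCT, also called Nocturnin (-0.03, adjusted p = 0.702), did not pass.

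**Figure D4:**
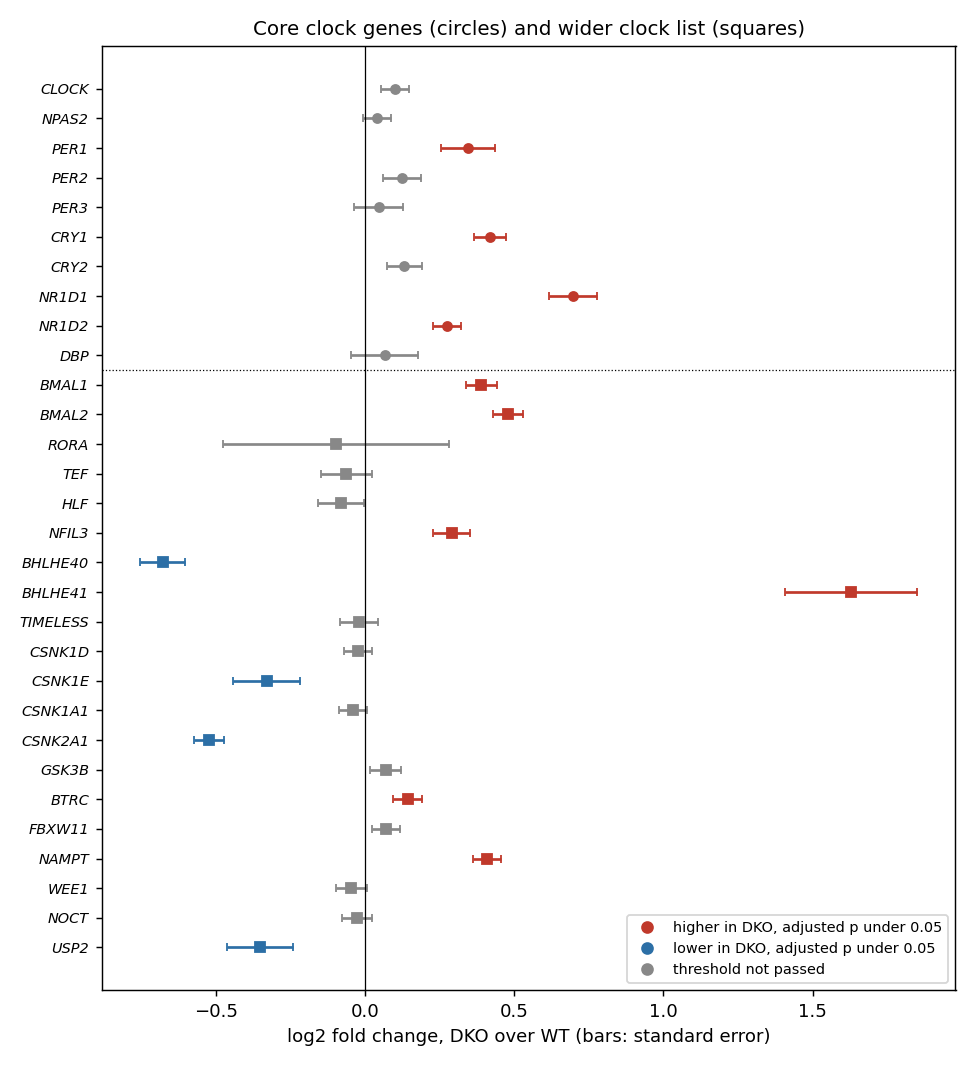
Log2 fold changes of DKO over WT with their standard errors, for the 10 clock genes (circles, top) and the 20 tested genes of the wider clock list (squares), coloured by call. The clock genes lie between 0.04 and 0.70, while the wider list runs from -0.68 for BHLHE40 to 1.63 for BHLHE41.

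Some clock genes share sequence with a neighbour, and without a known strand setting such reads cannot be told apart. TMEM165 overlaps CLOCK by 25495 bases. It had 90.6 and 86.7 CPM in DKO, against 107 and 108 CPM in WT, and fell by 0.27 (SE 0.05, adjusted p = 3.02e-07). Its call was lost in 1 of 13 alternative settings, the fit without WT replicate 1, where the log2 fold change was -0.28. THRA, a thyroid hormone receptor gene, overlaps the far end of NR1D1 by 1075 bases and had 0.15 ± 0.09 (adjusted p = 0.185). NKIRAS1 overlaps NR1D2 by 1277 bases at its start (-0.03, adjusted p = 0.69), and SPHK2 overlaps DBP by 376 bases (-0.11, adjusted p = 0.324). Of 7 further tested neighbours within 5 kb, UTS2 beside PER3 rose (1.14 ± 0.33, adjusted p = 0.0029, on 26 and 38 reads in DKO and 12 and 16 in WT). MTERF2 beside CRY1 fell (-0.29 ± 0.08, adjusted p = 0.00294). With no filter on low counts neither of these 2 was called (adjusted p of 0.108 and 0.0649), and UTS2 was not called by DESeq2 (adjusted p = 0.131). With each library left out UTS2 ran from 0.84 to 1.38 and MTERF2 from -0.35 to -0.23. In all, UTS2 lost its call in 5 of 12 alternative settings and MTERF2 in 4 of 13. HES6, VAMP3, MAPK8IP1, CA11 and SEC1P did not pass.

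The 3 protein-coding genes whose profile over the 4 libraries lay nearest to that of NR1D1 were MYH15, FAM171B and FGF2. Their Euclidean distances on centred log2 CPM were 0.0243, 0.0651 and 0.0675, among 9095 candidates whose mean log2 CPM was 3 or more. MYH15, a myosin heavy chain gene, had 24.6 and 26.2 CPM in DKO and 16.3 and 14.6 CPM in WT, and FGF2, a growth factor gene, had 24.3 and 25.2 CPM in DKO and 15.9 and 15.2 CPM in WT.

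The 4 calls among clock genes were not equally stable. CRY1, NR1D1 and NR1D2 kept their direction and their call under all 13 alternative settings, with adjusted p-values of at most 0.0237, 0.0167 and 0.0478. PER1 kept its direction in all 13 and its call in 10. Fits without a WT library also called fewer of all genes, so a call lost there is not particular to the gene. With upper quartile factors in place of TMM, CLOCK (0.14, adjusted p = 0.0325), PER2 (0.16, adjusted p = 0.0326) and CRY2 (0.17, adjusted p = 0.0148) also passed, which made 7 higher. These factors moved the whole table upward, with 4226 of all genes higher and 3328 lower. The median log2 fold change over all tested genes went from -0.01 to 0.03. CRY2 passed in 4 of the 13 settings, CLOCK in 5 and PER2 in 1. With at least 50 reads in 2 libraries, or with protein-coding genes alone, CLOCK and CRY2 passed and 6 were higher. All genes higher and lower numbered 3418 and 3664 in the first of these settings, and 2945 and 3131 in the second. NPAS2, PER3 and DBP passed in none. NPAS2 lay just below 0 without DKO replicate 2, PER3 without DKO replicate 1, and DBP without DKO replicate 1 or WT replicate 1.

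**Figure D5:**
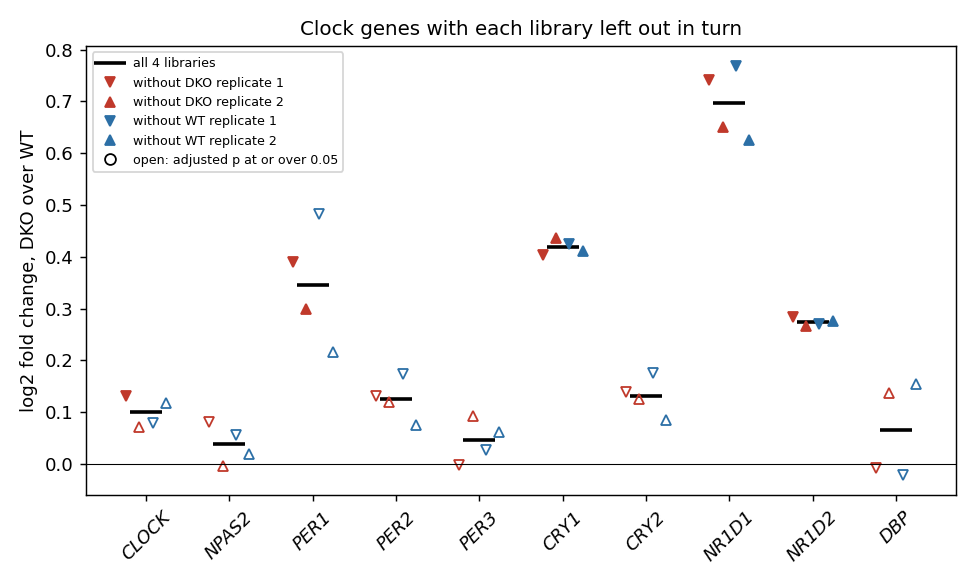
Log2 fold changes of DKO over WT for the 10 clock genes, with all 4 libraries (black bars) and with each library left out (triangles, open where the adjusted p is 0.05 or more). CRY1, NR1D1 and NR1D2 keep filled symbols throughout, and the PER1 symbols spread from 0.22 to 0.48.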

How the data were processed

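TTchem-seq libraries of HCT116 cells, 2 of DKO and 2 of WT by their titles, were analysed. The authors deposited 1 table of raw counts per library, by Ensembl gene, made with STAR 2.7.3a, featureCounts 1.6 and build hg38 per the submitters' processing notes. For the strand setting and the feature counted, nothing is given in the sources used here. Per the labels' protocols, 66 ng of labelled RNA entered a stranded kit, read as 75 bp single reads. Values are shares of each library, with no spike-in scale.

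Symbols were found for 42020 of 60656 IDs in a gene name table, and positions, spans and promoters were taken from RefSeq (GRCh38.p14). Groups were compared by edgeR 4.0.16 (R 4.3.3) with its quasi-likelihood F-test on group alone, TMM factors and default filterByExpr (count 10, total 15), fitted and adjusted over 19103 genes. On simulated data, for genes above 1 CPM, this test recovered 60% of true 1.25-fold changes and 96% of 1.5-fold changes. It called 12 of 18606 unchanged genes there. The simulation gave every gene the same spread and changed 50 genes at each simulated fold, far fewer than were called in the real data. These rates may therefore not hold for the real libraries. Calls were made at an adjusted p under 0.05, and the common biological coefficient of variation came to 3.46%. CPM used TMM-scaled totals. Log2 CPM used a prior count of 2, except the ratios and activator-repressor values by library, which used none. Standard errors are the absolute log2 fold change over the square root of F, and are too small where replicates disagree. Figures were drawn with matplotlib 3.10.9.

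Named genes were all 10 clock genes, BMAL1, BMAL2, up to 3 called genes of the wider clock list in each direction with the largest changes, TOP2A and TOP2B, tested neighbours within 5 kb, and the 3 genes nearest in profile to the clock gene with the largest change. TOP2A RNA, which auxin does not target, averaged 166 ± 2.3 CPM over the DKO libraries and 124 ± 2.4 CPM over the WT libraries (SD, n = 2 in each). Some clock-related genes were left out of the wider clock list and are not reported here. The members, lists and rules were chosen with earlier results of these data known. Alternatives were other scaling factors, count filters, DESeq2 1.42.0, limma 3.58.1 with voom, a replicate block, protein-coding genes only, and each library left out.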

Additional observations from a re-analysis of the deposited data

How the results depend on the processing

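Over 13 alternative settings for each of the 10 clock genes, 113 of the values kept their direction and their side of the threshold, 3 lost a call, 10 gained one and 4 changed sign. The number of clock genes higher was 7 with upper quartile factors, 6 with at least 50 reads or protein-coding genes only, and ran from 3 to 5 with each library left out, and the number lower was 0 throughout. Over all genes, those higher numbered 1640 with no filter beyond 1 read, 2347 by DESeq2 and 1023 to 3127 with each library left out. Those lower numbered 1655, 2469 and 928 to 3443 under the same settings. In the wider clock list, 4 to 6 were higher and 2 to 4 lower with each library left out, and 2 were lower with no filter and 2 by DESeq2. The activator minus repressor difference ran from -0.23 to -0.15 with each library left out, the smallest being without WT replicate 2. It was -0.029 with BMAL1 and BMAL2 added and -0.061 with only PER and CRY as repressors, both chosen after seeing the data. Changes of sign, all in values that missed the threshold, were found with a library left out for NPAS2 (-0.0038 to 0.081), PER3 (-0.0027 to 0.093), DBP (-0.021 to 0.15) and HES6 (-0.087 to 0.13), and with upper quartile factors for NKIRAS1 (0.0053). PER1 missed the threshold with no filter too (adjusted p = 0.143). The cause of these shifts was not tested.

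Replicate numbers are shared between groups, but deviations of same-numbered libraries correlated at only 0.0114. With 2 libraries a group this is a single value, so whether the libraries were prepared in pairs cannot be told from it. With the number as a replicate block, 5 clock genes were higher, CLOCK being added (0.10, adjusted p = 0.025), while all genes higher and lower numbered 3742 and 4078. With 2 libraries a group, differences as small as those of CLOCK, PER2 and CRY2 sat at the edge of what could be called, and RORA, below 1 CPM, had an error of 0.38 on the log2 scale.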
